A study of Mus musculus with 8 samples.

Results

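Immediate early genes are genes whose transcription rises within minutes of a stimulus and needs no new protein. The 10 classical members *Egr1*, *Egr2*, *Egr3*, *Fos*, *Fosb*, *Jun*, *Junb*, *Arc*, *Npas4* and *Nr4a1* were followed by gene symbol in whole brains of wild-type mouse embryos, and all 10 were among the 33971 genes of the deposited count table. The brains were collected at E14.5 and measured by bulk poly-A RNA sequencing. There were 4 brains from embryos whose mothers ate a choline-deficient diet (CDD) and 4 brains from embryos whose mothers ate normal chow (ND), and no other genotype or treatment entered. The diet began on the day of mating according to the methods and before mating according to a supplementary note. The study set these brains beside those of embryos that lack the choline transporter gene *Mfsd7c*, to ask whether a shortage of choline resembles that loss; the knockout brains were not analysed here.

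The sources used here do not say how many mothers or litters the 4 brains of a diet came from, so the p-values measure only the spread between these brains, and diet and litter cannot be told apart. In whole-brain RNA, fewer cells of a type and less RNA per cell cannot be told apart either. Libraries held 31770217 to 43121170 counts. All 5 neuronal markers followed here (*Tubb3*, *Stmn2*, *Dcx*, *Map2*, *Snap25*) were detected, with a summed level of 5354 to 6014 CPM (read counts scaled to the library total) in CDD brains and 5436 to 5631 CPM in ND brains. A pair of libraries stood apart in their tissue content. CDD replicate 2 held 4984 counts of *Hox* genes, which mark hindbrain and spinal cord, against 16 to 112 in the other libraries, and ND replicate 3 held 2881 CPM of globin transcripts against 611 to 1544 CPM. The mitochondrial share was 1.63% in CDD replicate 2 and 1.77% in CDD replicate 4, against 1.19% to 1.29% in the other 6 libraries. The part of these differences in the results was not tested. Calls were also made without CDD replicate 2 and ND replicate 3, referred to as both libraries that stood apart.

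In neurons, calcium entry through NMDA receptors and voltage-gated channels starts signals that act on CREB, SRF partners and MEF2 factors already sitting on these promoters. EGR proteins are zinc-finger transcription factors, FOS and JUN proteins pair to form the AP-1 transcription factor, NPAS4 is a transcription factor induced selectively by calcium, NR4A1 is an orphan nuclear receptor, and ARC is an effector protein that acts at synapses. In the adult brain these genes are used as readouts of recent neuronal activity. In the embryo they also respond to growth factors and to handling of tissue.

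In CDD brains *Egr1* fell by 28.2% and *Npas4* fell by 24.9%, and none of the other members passed the test. Of the 10 genes, 8 had enough counts to be tested across the whole transcriptome, and 2 of these 8 passed an adjusted p of 0.05 (edgeR quasi-likelihood test, Benjamini-Hochberg adjustment over 19367 genes), where 8.83% of all genes tested passed. Both were lower in CDD, a direction in which 4.59% of all genes passed, and 0 were higher, a direction in which 4.24% passed. At an unadjusted p below 0.05 the same counts held, 2 lower and 0 higher, where 12.1% of all genes were lower and 11.8% higher. The 10 genes were chosen with earlier results of these data known, so these shares are descriptions. DESeq2 and limma-voom also called 2 lower and 0 higher. The count of 2 fell to 0 at an adjusted p of 0.01, with FPKM values and without both libraries that stood apart, and it ran from 0 to 2 when single brains were left out. The log2 fold change, CDD over ND, was below 0 for 6 of the tested genes and above 0 for 2, with a median of -0.22 beside -0.0038 over all genes tested. The 8 values ran from -0.48 for *Egr1* to 0.30 for *Arc*. The levels of the diets did not overlap for *Egr1* and *Npas4*, whereas they overlapped for the other 6 tested members; 15.0% of all genes tested did not overlap. *Egr2* and *Fosb* were too scarce to test, since the filter asks for enough reads in at least 4 brains.

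**Figure D1:**
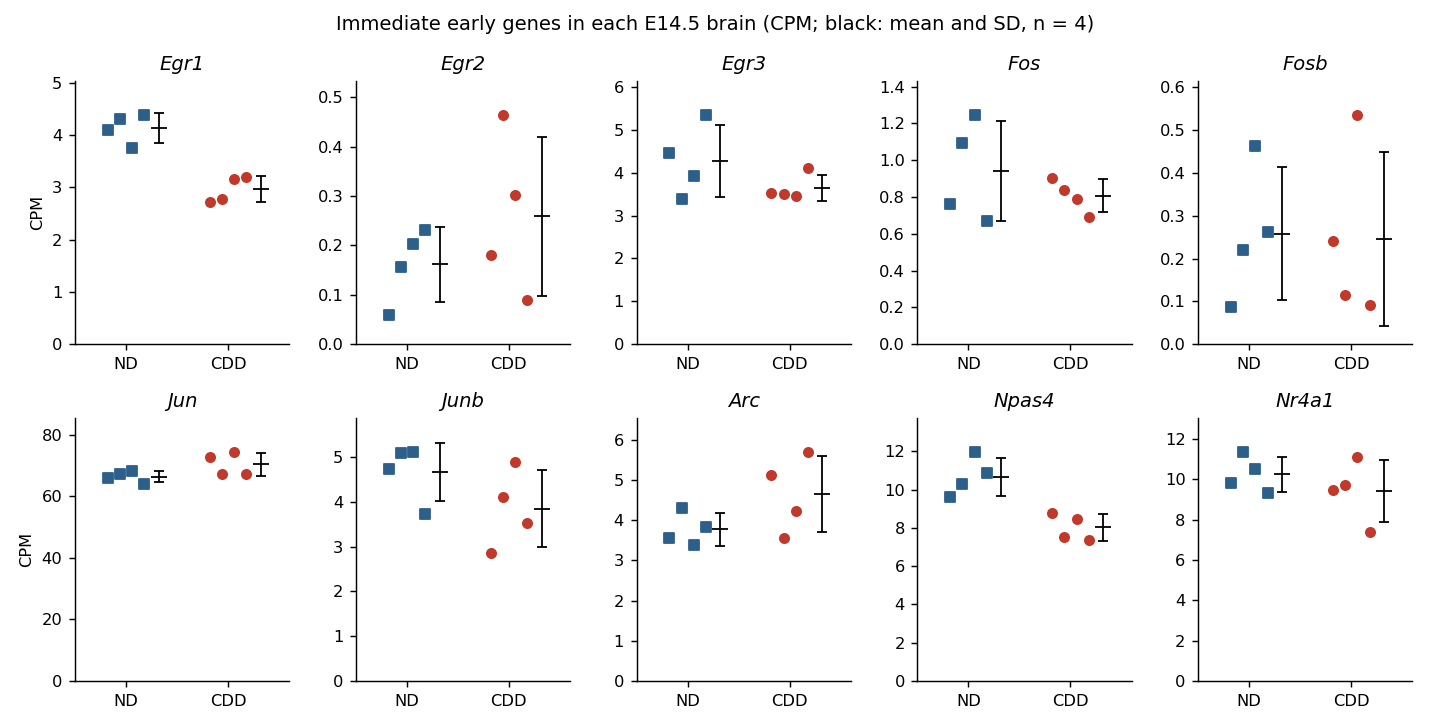
CPM of each of the 10 genes in every brain, with CDD and ND brains as separate points and the mean ± SD of each diet (n = 4); each panel has its own axis from 0. *Egr1* (2.72 to 3.20 CPM in CDD, 3.76 to 4.38 CPM in ND) and *Npas4* (7.36 to 8.79 and 9.62 to 12.0 CPM) are the 2 panels among the tested genes in which the diets do not overlap.

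*Egr1* (ENSMUSG00000038418, plus strand of chromosome 18, 34992876 to 34998037 in the files) encodes a zinc-finger factor that links neuronal and growth-factor signals to target genes. It measured 2.72, 2.78, 3.16 and 3.20 CPM in CDD replicates 1 to 4 and 4.10, 4.31, 3.76 and 4.38 CPM in ND replicates 1 to 4. All 4 CDD brains lay below the lowest ND brain, and the means were 2.96 ± 0.250 CPM and 4.14 ± 0.279 CPM (SD, n = 4). The log2 fold change was -0.48 ± 0.13 (SE; 95% interval -0.74 to -0.21; adjusted p = 0.0242, edgeR). These levels rest on 90 to 151 counts per brain. The call was close to the threshold: it was lost when CDD replicate 1, CDD replicate 2 or any one of ND replicates 1 to 4 was left out (adjusted p from 0.0520 to 0.0847), while the log2 fold change stayed between -0.52 and -0.44. Without both libraries that stood apart it was -0.49 with an adjusted p of 0.0933, and the adjusted p ranged from 0.0149 to 0.0933 over all alternatives.

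*Egr3*, a paralogue that is itself a target of activity signals, measured 3.53, 3.51, 3.46 and 4.10 CPM in CDD and 4.45, 3.38, 3.93 and 5.33 CPM in ND. The diets overlapped, and ND replicate 2 held the lowest value of all 8 brains. The log2 fold change was -0.23 (95% interval -0.52 to 0.065; adjusted p = 0.343), and it was -0.11 without ND replicate 4. *Egr2*, known for its role in hindbrain segments and in myelinating Schwann cells, had 6, 16, 13 and 3 counts in CDD replicates 1 to 4 and 2, 5, 7 and 8 counts in ND. That is 0.0905 to 0.464 CPM in CDD and 0.0585 to 0.232 CPM in ND, too few counts for a comparison. The highest value was in CDD replicate 2, the library with the *Hox* counts. *Nab2*, a corepressor that binds EGR proteins and is itself an EGR target, fell in CDD. It measured 3.98, 3.16, 5.09 and 3.95 CPM in CDD and 6.26, 5.53, 7.23 and 5.77 CPM in ND, with no overlap. Its log2 fold change was -0.61 ± 0.14 (SE; adjusted p = 0.0104, edgeR), and the call was lost without ND replicate 3 and without both libraries that stood apart (-0.42, adjusted p = 0.129). *Nab2* sums to 591 counts in CDD and 840 in ND.

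*Npas4* (ENSMUSG00000045903, minus strand of chromosome 19, 5034383 to 5040344 in the files) measured 8.79, 7.50, 8.46 and 7.36 CPM in CDD replicates 1 to 4 and 9.62, 10.3, 12.0 and 10.9 CPM in ND. Every CDD brain was below every ND brain, with means of 8.03 ± 0.702 CPM and 10.7 ± 0.995 CPM (SD, n = 4). The log2 fold change was -0.41 ± 0.093 (SE; 95% interval -0.61 to -0.22; adjusted p = 0.0108, edgeR) on 244 to 414 counts per brain. The call held in 7 of 8 fits that left out 1 brain and was lost without ND replicate 3 (-0.35, adjusted p = 0.0661). That brain had the highest *Npas4* and the highest globin level, and calls over all genes also fell without it, from 1710 to 471. Without both libraries that stood apart the log2 fold change of *Npas4* was -0.32 with an adjusted p of 0.131.

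*Arc* was the tested member with the highest log2 fold change. It measured 5.13, 3.56, 4.23 and 5.70 CPM in CDD and 3.57, 4.31, 3.38 and 3.83 CPM in ND. CDD replicates 1 and 4 lay above every ND brain, and CDD replicates 2 and 3 lay within the ND range. The log2 fold change of 0.30 had a 95% interval from -0.0012 to 0.60 and an adjusted p of 0.211, so a difference from 0 was not shown.

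**Figure D2:**
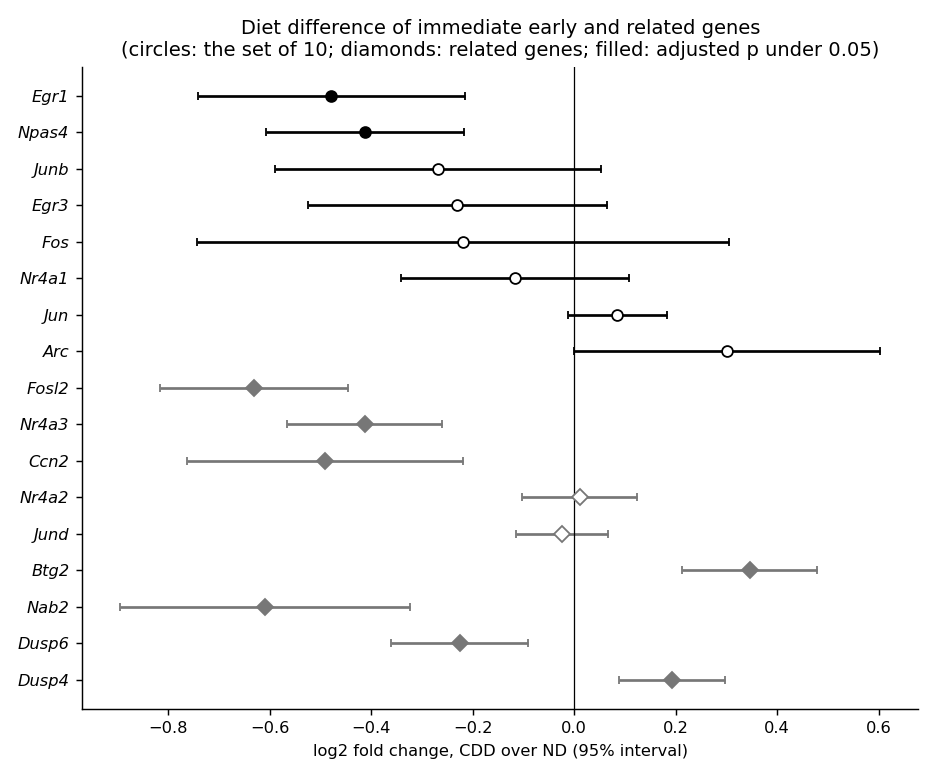
Log2 fold change of CDD over ND with its 95% interval (edgeR, 4 brains per diet). Circles are the 8 tested members, ordered by value. Diamonds are the related genes *Fosl2*, *Nr4a3*, *Ccn2*, *Nr4a2*, *Jund*, *Btg2*, *Nab2*, *Dusp6* and *Dusp4*. Filled symbols passed an adjusted p of 0.05, and the vertical line at 0 marks equal levels. Among the members, the intervals of *Egr1* (-0.74 to -0.21) and *Npas4* (-0.61 to -0.22) lie below 0 and the other 6 include 0. Among the related genes, only the intervals of *Nr4a2* and *Jund* include 0.

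The AP-1 members did not pass the test. *Fos*, the usual marker of recent activity, measured 0.906, 0.840, 0.790 and 0.694 CPM in CDD and 0.761, 1.09, 1.24 and 0.667 CPM in ND. These are 23 to 43 counts per brain, the ND values enclosed all 4 CDD values, and the log2 fold change was -0.22 with a wide 95% interval of -0.74 to 0.30 (adjusted p = 0.653). *Fosb*, whose product is a FOS-type AP-1 partner, had 8, 4, 23 and 3 counts in CDD and 3, 7, 16 and 9 counts in ND, and was not tested. *Junb* measured 2.87, 4.11, 4.90 and 3.53 CPM in CDD and 4.74, 5.10, 5.12 and 3.74 CPM in ND. CDD replicates 2 and 3 lay within the ND range, and the log2 fold change was -0.27 (95% interval -0.59 to 0.052; adjusted p = 0.303). *Junb* overlaps the abundant antioxidant gene *Prdx2* (502 CPM) on the opposite strand, and the strand setting of the counting is not given in the sources used here, so reads of the pair may not be separated. *Jun*, the main partner of FOS proteins, measured 72.7, 67.3, 74.3 and 67.2 CPM in CDD and 65.9, 67.4, 68.2 and 64.0 CPM in ND, on 2155 to 3200 counts. The interval of its log2 fold change ran from -0.013 to 0.18, the narrowest of the tested members (adjusted p = 0.283). *Jun* overlaps the antisense transcript *Junos* at 2.10 CPM.

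*Fosl2* and *Jund*, which encode further AP-1 subunits, behaved unlike each other. *Fosl2* fell, from 23.3 to 26.4 CPM in ND to 13.5 to 19.2 CPM in CDD, with a log2 fold change of -0.63 ± 0.088 (SE; adjusted p = 9.02e-04, edgeR) that passed in all 8 fits leaving out 1 brain. *Jund* gave -0.02 (adjusted p = 0.799). Summed per kilobase of gene length, the 4 FOS-family genes reached 2.18 ± 0.277 CPM per kb in CDD and 3.13 ± 0.256 in ND. The ranges were 2.00 to 2.59 and 2.97 to 3.51, and *Fosl2* made up most of this sum. The 3 JUN-family genes summed to 66.8 ± 2.30 and 66.7 ± 2.10 CPM per kb. *Fosl2* was chosen from the list of other immediate early genes as one that passed, so its separation is a description of that choice.

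*Nr4a1*, the NR4A receptor most used as an immediate early gene, measured 9.45, 9.74, 11.1 and 7.39 CPM in CDD and 9.83, 11.3, 10.5 and 9.33 CPM in ND. CDD replicate 4 was the lowest of the 8 brains and the other 3 CDD brains lay within the ND range. The log2 fold change was -0.12 (95% interval -0.34 to 0.11; adjusted p = 0.558). One unnamed gene overlaps *Nr4a1* on the same strand, at 1.72 CPM. The paralogue *Nr4a3* fell, from 37.4 to 39.6 CPM in ND to 24.6 to 32.9 CPM in CDD (-0.41 ± 0.073, SE; adjusted p = 0.00287, edgeR), and passed in all 8 fits leaving out 1 brain. *Nr4a2*, needed for midbrain dopamine neurons, gave 0.01 (adjusted p = 0.931). Thus *Nr4a3* passed the test while *Nr4a1* and *Nr4a2* did not, and the difference between the paralogues was not tested.

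Calcium and cAMP signals reach such promoters through CREB, which binds the sequence TGACGTCA or its shorter form TGACG. RefSeq promoters (GRCm38.p6, 250 bases before to 50 after the transcription start) were read for 7 of the 10 members. Those of *Egr1*, *Egr3* and *Arc* were not read, so the counts that follow say nothing about *Egr1*, which fell. TGACG, read on either strand and also counted within TGACGTCA, was present in 6 of the 7 members, all but *Jun*, and in 20.8% of 32851 promoters. Those promoters were not matched to the members in base content, so an enrichment was not tested. A member counted when any of its start sites held a match: *Egr2* has 5 start sites and held TGACG at 3 of them, so its chance of a match is larger than that of a single promoter. The 8-base palindrome TGACGTCA was in 0 of the 7 and in 1.79% of all promoters. The AP-1 motif TGANTCA was in 0 of the 7 and 7.81% of all promoters. Within this window the CArG box bound by SRF was present in 1 of the 7, *Egr2*, and in 1.63% of all promoters. Sites further from the start were not read, so a member without a match here may hold one elsewhere. Motif matches are descriptions and not measured binding.

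The sequences that follow are the promoters of *Npas4*, which fell, of *Nr4a1* and *Nr4a3*, a paralogue pair with the same number of matches, and of *Fos*. All are written 5′ to 3′ on the strand of the gene, with TGACG or its reverse complement CGTCA in capitals. They lie at chr19:4989922-4990221 (minus strand), chr15:101266596-101266895 (plus strand), chr4:48045055-48045354 (plus strand) and chr12:85473640-85473939 (plus strand), in the order given.
Npas4: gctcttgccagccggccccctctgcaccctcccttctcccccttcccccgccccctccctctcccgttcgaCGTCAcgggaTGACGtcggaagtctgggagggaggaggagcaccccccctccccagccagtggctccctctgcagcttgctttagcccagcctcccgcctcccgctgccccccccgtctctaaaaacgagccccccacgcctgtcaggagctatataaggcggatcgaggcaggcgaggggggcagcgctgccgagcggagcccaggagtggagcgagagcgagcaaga
Nr4a1: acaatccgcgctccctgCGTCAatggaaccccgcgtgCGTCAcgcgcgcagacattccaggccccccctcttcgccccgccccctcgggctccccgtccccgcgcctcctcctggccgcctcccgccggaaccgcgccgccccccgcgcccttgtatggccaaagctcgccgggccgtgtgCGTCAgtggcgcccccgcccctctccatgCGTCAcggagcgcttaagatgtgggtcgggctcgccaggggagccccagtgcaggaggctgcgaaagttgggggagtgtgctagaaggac
Nr4a3: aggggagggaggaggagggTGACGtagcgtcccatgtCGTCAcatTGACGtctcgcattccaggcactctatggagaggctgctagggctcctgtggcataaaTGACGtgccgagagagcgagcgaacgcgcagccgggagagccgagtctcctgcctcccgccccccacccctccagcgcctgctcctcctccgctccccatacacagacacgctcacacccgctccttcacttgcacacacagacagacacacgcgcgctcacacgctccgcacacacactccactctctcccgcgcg
Fos: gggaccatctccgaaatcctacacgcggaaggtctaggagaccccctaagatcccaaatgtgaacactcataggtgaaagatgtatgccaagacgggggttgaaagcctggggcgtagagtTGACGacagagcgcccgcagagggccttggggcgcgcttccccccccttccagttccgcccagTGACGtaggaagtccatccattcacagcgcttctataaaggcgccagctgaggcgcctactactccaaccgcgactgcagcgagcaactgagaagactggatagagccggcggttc
*Npas4* held 2 matches, 179 and 169 bases before the start, and *Fos* also held 2, at 129 and 66 bases. *Nr4a1* held 4, at 233, 213, 69 and 40 bases, and *Nr4a3* held 4, at 231, 213, 205 and 147 bases. Of all promoters, 76 held 4 or more (0.231%). *Nr4a1* and *Nr4a3* thus shared the number of matches while the first had a log2 fold change of -0.12 and the second of -0.41.

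Per kilobase of the gene length in the file, the members spanned from 21.4 ± 1.08 CPM per kb for *Jun* (SD, n = 8) to 0.0403 for *Fosb*. The order below *Jun* was *Nr4a1* at 2.80, *Npas4* at 2.26, *Junb* at 1.85, *Arc* at 1.38, *Egr3* at 0.899, *Egr1* at 0.792, *Fos* at 0.372, *Egr2* at 0.0620 and *Fosb* at 0.0403 CPM per kb. The ranges over the 8 brains did not overlap between *Jun* and *Nr4a1*, between *Egr1* and *Fos*, or between *Fos* and *Egr2*. All other neighbours overlapped, so their order was not separated from the spread between brains, although *Nr4a1* exceeded *Npas4* and *Arc* exceeded *Egr3* in 8 of 8 brains. *Jun* stood 57.7-fold above *Fos* on average (40.5 to 71.4 over the brains). *Jund*, at 43.5 CPM per kb, was higher than *Jun* in 8 of 8 brains, and *Nr4a2*, at 9.78, exceeded *Nr4a1* by 3.49-fold.

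**Figure D3:**
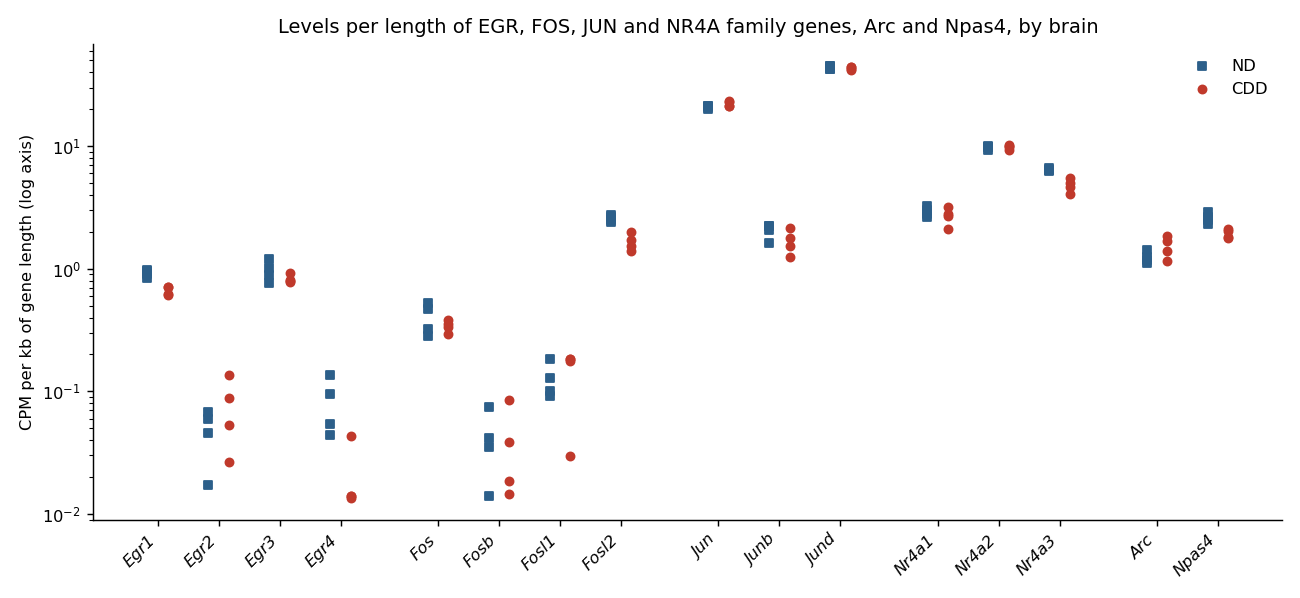
Level per kilobase of gene length (CPM per kb, log axis) of the EGR, FOS, JUN and NR4A families, *Npas4* and *Arc*, one point per brain, coloured by diet. *Jund* (43.5) and *Jun* (21.4) stand highest and *Fosb* (0.0403) lowest.

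How far the brains of one diet varied differed between members. For *Egr1* the coefficient of variation (CV, the SD as a percentage of the mean) between the 4 brains was 8.42% in CDD and 6.75% in ND, below the 9.67% and 8.46% that counting error alone gives. *Junb* had 22.4% in CDD against 8.41% from counting, *Arc* had 20.3% against 7.76%, and *Nr4a1* had 16.3% against 5.40%. *Egr3* varied by 8.29% in CDD and 19.5% in ND. *Jun* varied least, by 5.26% and 2.77%. *Fos* varied by 11.1% in CDD and 28.9% in ND against 18.6% and 17.7% from counting. The 7 tested members of at least 1 CPM were also compared from brain to brain. Among their 21 pairs, the deviations from the diet mean correlated above 0 in 9 pairs, with a median Pearson r of -0.085 over 8 brains. The pairs ran from -0.73 for *Egr3* with *Nr4a1* to 0.73 for *Jun* with *Nr4a1*. These correlations share libraries and are descriptions.

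**Figure D4:**
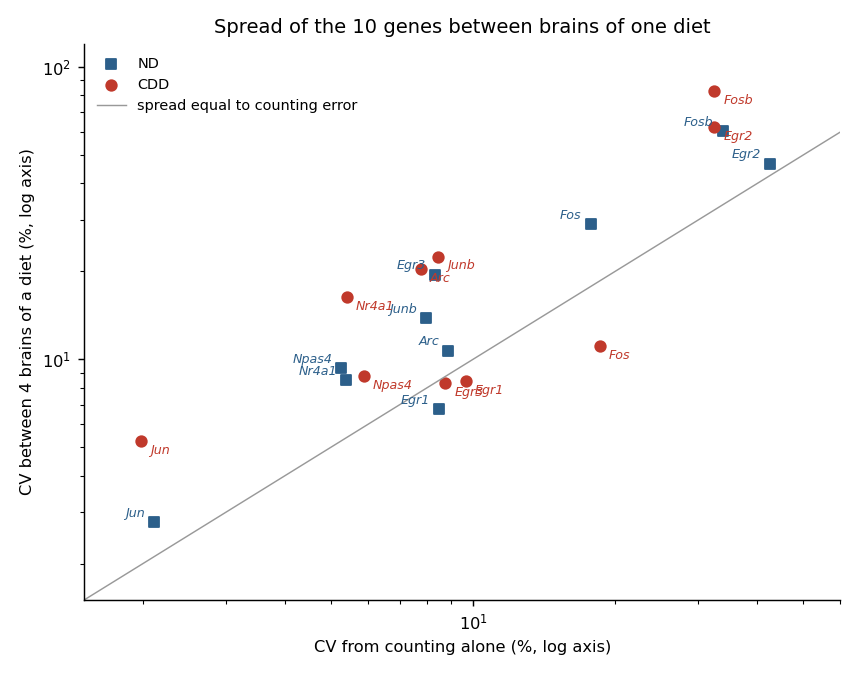
CV between the 4 brains of a diet against the CV expected from counting alone, both in percent on log axes, one point per gene and diet; the line marks equality. *Egr1* lies below the line in both diets, and *Junb* (22.4%) and *Arc* (20.3%) in CDD lie well above it.

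The mean within-diet deviation of these 7 members over the 8 brains was most like that of *Emx1* (Pearson r = 0.984), *Mmp17* (0.978), *Adamts18* (0.971), *Neurod2* (0.968) and *Gm32699* (0.966) among 15881 genes of at least 1 CPM. *Emx1* marks the dorsal telencephalon and *Neurod2* marks its differentiating excitatory neurons. The genes closest to *Egr1* alone were *4930430F08Rik* (0.966), *Eloa* (0.966), *Teddm2* (0.960), *Gm10676* (0.956) and *Mterf1b* (0.951) among 15887 genes. High values are easily reached when so many genes are ranked over 8 points with the diet means removed. The mean deviation of the 7 members was lowest in CDD replicate 2 (-0.067), the library with the *Hox* counts, and highest in CDD replicate 3 (0.098). The part of tissue content in these likenesses was not tested.

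**Figure D5:**
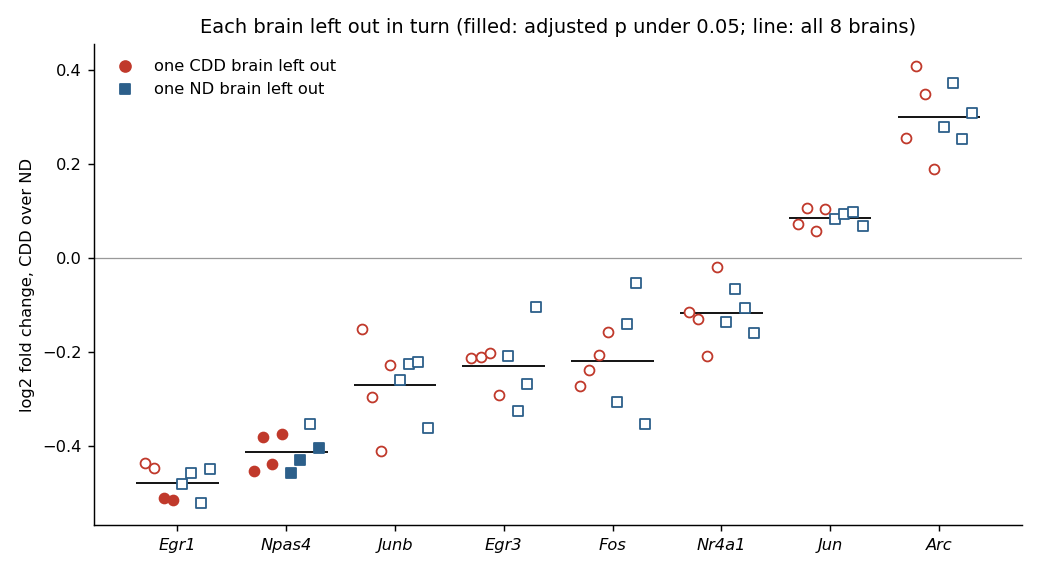
Log2 fold change of CDD over ND for each tested member from the full set of 8 brains and from the fits that leave out 1 brain; filled symbols passed an adjusted p of 0.05 and open symbols did not. *Egr1* stays between -0.52 and -0.44 and *Npas4* between -0.46 and -0.35, whereas the other 6 members have no filled symbol.

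The wider set of immediate early genes held genes that fell and a gene that rose. Of 35 such genes outside the 10, 33 were tested and 4 passed, 3 lower and 1 higher, with a median log2 fold change of -0.07. The percentage that passed, 12.1%, compares with 8.83% of all genes tested, and 2 to 5 were lower when single brains were left out. This list and the lists that follow were chosen with earlier results of these data known, so their shares are descriptions. The 3 that fell were *Fosl2*, *Nr4a3* and *Ccn2*, which encodes a secreted matrix protein and target of YAP and SRF signals. *Ccn2* measured 3.74, 4.17, 3.74 and 2.71 CPM in CDD and 4.86, 4.97, 5.15 and 5.25 CPM in ND (log2 fold change -0.49, adjusted p = 0.0251, edgeR), and the call was lost without CDD replicate 4 or any one of ND replicates 1, 3 and 4, and without both libraries that stood apart (adjusted p = 0.0707). *Fosl2*, *Nr4a3* and *Btg2* kept their calls without both (adjusted p = 0.0184, 0.0265 and 0.0265). The 1 that rose was *Btg2*, an antiproliferative gene that in the embryonic cortex marks progenitors about to form neurons. It measured 46.8 to 53.7 CPM in CDD and 37.0 to 43.9 CPM in ND (0.35 ± 0.064, SE; adjusted p = 0.00322, edgeR) and passed in all 8 such fits.

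Among 32 genes that carry the signal to these promoters, 5 passed (15.6%, beside 8.83% of all genes) and all 5 were lower (beside 4.59%), with a median of -0.02 over the list. The number lower ran from 2 to 9 when single brains were left out and was 1, *Grin1*, without both libraries that stood apart. *Grin1*, the obligatory NMDA receptor subunit, fell from 49.8 to 57.1 CPM in ND to 37.2 to 44.2 CPM in CDD (-0.42, adjusted p = 9.02e-04, edgeR). *Cacna1d*, an L-type calcium channel, fell by 0.26 on the log2 scale (adjusted p = 0.00477), and *Crtc3*, a CREB coactivator, fell by 0.29 (adjusted p = 0.00924). *Mef2c*, a MEF2 transcription factor of cortical neurons, fell by 0.46 (adjusted p = 0.0308) but its call held only without CDD replicate 3 or ND replicate 2 among the 8 fits leaving out 1 brain. That of *Crtc3* was lost without ND replicate 3. The fifth was the kinase gene *Rps6ka5* (-0.18, adjusted p = 0.0449), whose call likewise held in 2 of these 8 fits, without CDD replicate 3 or 4. The factors *Srf* (-0.07, adjusted p = 0.419) and *Creb1* (0.13, adjusted p = 0.329) did not pass.

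Of 13 feedback inhibitors, 3 passed (23.1%, beside 8.83% of all genes), with a median of -0.06 over the list. When single brains were left out, 0 to 2 were lower and 0 to 1 higher, and 0 passed without both libraries that stood apart. *Nab2* and *Dusp6* (-0.23, adjusted p = 0.0356), an ERK phosphatase, fell, and *Dusp4* (0.19, adjusted p = 0.0226), another MAP kinase phosphatase, rose. The call of *Dusp6* held only without CDD replicate 3 or ND replicate 2, and that of *Dusp4* was lost without CDD replicate 2 or ND replicate 1, 3 or 4. Late response genes are those that early factors can switch on, and whether they do so here was not tested. Of 14 genes listed as such, 5 passed (35.7%, beside 8.83% of all genes) and all 5 were lower (beside 4.59%), with a median of -0.13. The list was chosen with earlier results known, so these shares describe that choice. The number lower was 4 to 5 when single brains were left out and 4 without both libraries that stood apart, where *Slc2a3* was lost (adjusted p = 0.0587). *Inhba*, which encodes an activin subunit, fell from 4.78 to 6.20 CPM in ND to 3.25 to 3.69 CPM in CDD (-0.70, adjusted p = 0.00213, edgeR). *Vgf*, a neuropeptide precursor, fell from 15.7 to 19.7 CPM to 12.0 to 14.6 CPM (-0.51, adjusted p = 0.00221, edgeR). *Lingo1* (-0.29, adjusted p = 0.00472) and the neuronal glucose transporter gene *Slc2a3* (-0.28, adjusted p = 0.00602) also fell, and the fifth was the secretogranin gene *Scg2* (-0.27, adjusted p = 0.0440). *Inhba*, *Vgf*, *Lingo1* and *Slc2a3* kept their calls in all 8 fits leaving out 1 brain, whereas that of *Scg2* held in 2, without CDD replicate 2 or ND replicate 2. *Bdnf* gave -0.39 and did not pass (adjusted p = 0.114).

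Because immediate early genes also respond to stress and low oxygen, 2 stress lists were read beside them. Of 10 heat shock genes, 2 passed and both were higher (20%, beside 4.24% of all genes that were higher, with a median of the list of 0.06). These were *Hspd1* (0.19, adjusted p = 0.0101) and *Hspa8* (0.17, adjusted p = 0.0386). Over the list, 6 log2 fold changes were above 0 and 4 below. *Hspa1a* (0.09, adjusted p = 0.788, edgeR) and *Hspa1b* (-0.07, adjusted p = 0.860, edgeR) did not pass. Of 15 hypoxia genes tested, 5 passed, with 4 lower (26.7%, beside 4.59% of all genes) and 1 higher (beside 4.24%), and a median of -0.16. *Ndrg1* (-0.43, adjusted p = 0.00344), *Egln3* (-0.35, adjusted p = 0.0141) and *Ddit4* (-0.24, adjusted p = 0.0276) were lower, as was *Pfkfb3* (-0.18, adjusted p = 0.0116), and the glycolytic gene *Hk2* was higher (0.37, adjusted p = 0.0123). The calls of *Hspd1*, *Hspa8* and *Hk2* were each lost without ND replicate 1, 3 or 4 (*Hspa8* also without CDD replicate 2 or ND replicate 2), those of *Egln3* and *Pfkfb3* without ND replicate 1 or 4, and that of *Ddit4* without CDD replicate 1 or ND replicate 1, 2 or 3, while *Ndrg1* kept its call in all 8 fits leaving out 1 brain. Heat shock genes called higher then numbered 0 to 3 and hypoxia genes called lower 1 to 5. Without both libraries that stood apart 0 genes of either list passed (adjusted p = 0.0504 for *Ndrg1*). The part of stress or low oxygen in the levels of *Egr1* and *Npas4* was not tested.

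Markers of cell types were read beside the fall of *Egr1* and *Npas4*. Of all genes tested, 4.24% passed as higher, 4.59% as lower, and 15.0% had diets that did not overlap. The marker lists are short, so 1 passing gene is a large share of a list, and no share was taken for summed levels. The 5 neural progenitor markers summed to 1097 to 1250 CPM in CDD and 939 to 1027 CPM in ND, and 3 passed as higher, *Nes* (0.47), *Pax6* (0.25) and *Vim* (0.21). Of the 5 neuronal markers 1 passed, *Snap25* (-0.23, adjusted p = 0.0246), and their sums overlapped. Endothelial markers summed to 202 to 215 CPM in CDD and 217 to 226 CPM in ND (1 of 5 lower, *Cldn5*), mural cell markers to 147 to 158 and 158 to 172 CPM (1 of 4 lower, *Rgs5*), and microglia and macrophage markers to 59.3 to 68.2 and 67.3 to 79.7 CPM (2 of 6 lower, *Cd163* and *Mrc1*). Of 4 meningeal fibroblast markers, *Col1a1* and *Col1a2* were lower and *Lum* was higher (sums of 251 to 275 and 267 to 323 CPM). No erythroid, choroid plexus, rhombomere and neural crest, or caudal hindbrain marker that was tested passed (edgeR), and 0 markers were absent from all brains. Only 4 of the 6 rhombomere and neural crest markers and 2 of the 5 caudal markers were tested. Of the tested markers of these lists, 1 had an unadjusted p below 0.05, *Sox10* of the rhombomere and neural crest list. It was lower in CDD without overlap (log2 fold change -0.66, unadjusted p = 0.00677, adjusted p = 0.0644, edgeR). The caudal markers reached 94.9 CPM at most in CDD and 6.27 CPM in ND. Without both libraries that stood apart, *Nes*, *Pax6* and *Cd163* kept their calls and the other 8 markers named as passing lost them. When single brains were left out, *Nes*, *Pax6*, *Cldn5* and *Cd163* kept their calls in all 8 fits, *Vim* and *Snap25* lost theirs without ND replicate 1, 3 or 4, *Rgs5* without CDD replicate 1 or ND replicate 3 or 4, and *Col1a1* without ND replicate 1 or 3, while *Mrc1*, *Col1a2* and *Lum* held in 2, 3 and 1 of the 8 fits. The part of cell composition in the result for the immediate early genes was not tested.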

How the data were processed

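Poly-A RNA was sequenced from 8 whole embryonic brains, 4 per diet, grouped by their labels. The submitters' processing notes name HISAT2 2.0.5, featureCounts 1.5.0-p3 and DESeq2 1.20.0. The genome build of the alignment and whether counting used strand are not given in the sources used here. The table the authors deposited holds whole-number counts for each gene, the same counts divided by size factors, and FPKM values, which scale fragments to transcript length and depth. Their columns of fold changes and p-values, and the lists cut from them, were not used.

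Here, counts were analysed in edgeR 4.0.16 (R 4.3.3): filterByExpr left 19367 of 33971 genes, libraries were scaled by TMM, and the robust quasi-likelihood test compared diets with Benjamini-Hochberg adjustment over all genes tested and a threshold of 0.05. CPM are relative to the TMM-scaled total, and CPM per kb divides by the gene length in the file. The order of the members per kb rests on that length. Alternatives were DESeq2 1.42.0 and limma-voom (limma 3.58.1), other scalings and filters, limma on log2(FPKM + 1) of genes with a mean FPKM of at least 0.1, a replicate block, a threshold of 0.01 and leaving out brains. Leaving out both libraries that stood apart, and the alternatives for genes of other lists, were chosen after the data were seen. The filter keeps genes with enough reads in at least as many brains as a diet holds.

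All 10 members are named. Of every other list, the genes that passed are named, at most the 4 of largest log2 fold change; *Rps6ka5*, *Scg2*, *Pfkfb3* and the paralogues, *Srf*, *Creb1* and *Bdnf* were named after their values were seen. The members and all lists were chosen with earlier results of these data known. The fit was tested on simulated data with known changes. It called 157 of 197 changed genes in the true direction and 10 unchanged genes. Each planted change was larger on the log2 scale than that of any tested member, and the sizes were pooled. The share called thus does not tell how often changes of the members' size are called. The simulation used means and dispersions from these data and held no litter or tissue differences between brains. With 4 brains per diet and counts under 50 per brain for *Fos*, *Fosb* and *Egr2*, changes in these genes were measured with low precision. No pair of libraries agreed within sampling noise.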

Additional observations from a re-analysis of the deposited data

Results flagged for a closer look

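*Egr3* in CDD replicate 4 was the 1 value that stood apart from its group among the 20 groups of 4 brains examined (10 genes in 2 diets). It was 4.10 CPM, while the nearest of the other CDD brains was 3.53 CPM. The gap divided by the range was 0.890, above Dixon's critical value of 0.829 for 4 samples. Chance gives such a value in about 1 of 20 groups. Without this brain the log2 fold change of *Egr3* was -0.29 (adjusted p = 0.267, edgeR), beside -0.23 with all brains.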

How the results depend on the processing

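Of the 10 genes, 2 passed with all 8 brains, and 0 passed at an adjusted p of 0.01, 0 by limma on log2(FPKM + 1) and 0 without both CDD replicate 2 and ND replicate 3; 0 to 2 passed, all of them lower, when single brains were left out. Over all genes, 1710 passed, against 477 at 0.01, 16 with FPKM, 418 without both brains and 471 to 2495 without single brains, with 688 without ND replicate 1, 471 without ND replicate 3 and 615 without ND replicate 4. The median log2 fold change of the members was -0.22, -0.10 with FPKM, where the pseudocount shrinks low genes, and -0.26 to -0.16 without single brains. DESeq2 called 2151 genes and limma-voom 1414, and both called the same 2 members. No member reversed its direction: of 143 alternative values for the 8 tested genes, 130 kept their side of the threshold and 13 lost the call. For the 35 other genes that passed in the lists, 11 of them cell type markers, 462 of 630 values kept it and 168 lost it. Brains with the same replicate number correlated in their deviations by -0.133 to 0.232; as not every pair was over 0.1 and no label ties the numbers to a litter or batch, the numbers were not taken as pairs. With the number as a replicate block, 1812 genes and 2 members passed, with a member median of -0.21, and 3 of 4 CDD brains correlated best with their own number. Depth limited *Fos*, *Fosb* and *Egr2*.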
